A study of Mus musculus with 6 samples.

Results

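Glypicans and syndecans are the cell-surface carriers of heparan sulfate. The family was taken as the 10 rows of the count table whose symbols are Gpc1 to Gpc6 and Sdc1 to Sdc4, of 24470 genes in all. All 10 were in the table, and 9 of them passed the filter on low counts, leaving Gpc5 untested. The family was chosen with an earlier result in view, a higher Gpc4 in the Ppp1r3c cKO samples, so its differences between cKO and control are given as a description and nothing is rested on them.

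The RNA came from whole mouse testes at E12.5, in 3 control and 3 cKO samples, each a pool of 2 gonadal pairs. Control testes carried floxed Ppp1r3c alleles (Ppp1r3c f/f), and cKO testes carried the same alleles with the Sf1-Cre transgene (Sf1-Cre Ppp1r3c f/f), driven by Nr5a1 sequences and active in somatic precursors of the gonad, among them those of Sertoli cells. Control testes had no Cre, so the transgene and the loss of Ppp1r3c cannot be told apart. Libraries held 16139487 to 44145158 counts, with control replicate 1 the shallowest. Ppp1r3c, which promotes glycogen synthesis, was lower in every cKO sample, at 23.2 ± 1.19 CPM (counts scaled to a common library size, SD, n = 3) where Cre was absent and 5.35 ± 0.624 CPM (SD, n = 3) where it was present. Nr5a1 itself was higher in every cKO sample, at 347.3 ± 32.3 CPM in control and 550.4 ± 40.8 CPM in cKO (SD, n = 3 each). The relation of this difference to the transgene was not tested.

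Glypicans are held at the outer membrane by a lipid (GPI) anchor, and syndecans span the membrane and end in a short cytoplasmic tail. Both carry long sulfated sugar chains, attached at serines that are followed by glycine, and through these chains they bind FGF, Hedgehog, Wnt and BMP ligands and help to present them to receptors or to restrict their spread. In the fetal testis several such ligands pass between Sertoli, germ and interstitial cells.

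The features that define the families can be read in their coding sequences, taken from GENCODE M21 transcripts on the GRCm38 (mm10) build. The windows of 60 coding bases with the most serine-glycine codon pairs are shown for the glypicans because they hold the dipeptides to which sugar chains can be attached, and capitals mark these codon pairs. Among equal windows the one nearest the 3' end was taken.
Gpc4: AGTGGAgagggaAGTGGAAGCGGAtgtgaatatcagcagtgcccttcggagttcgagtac
Gpc6: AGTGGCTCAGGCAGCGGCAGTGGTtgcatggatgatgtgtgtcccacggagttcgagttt
Gpc1: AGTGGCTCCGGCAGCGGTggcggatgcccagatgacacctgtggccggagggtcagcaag
Gpc2: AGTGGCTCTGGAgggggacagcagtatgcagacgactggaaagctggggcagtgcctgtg
Gpc3: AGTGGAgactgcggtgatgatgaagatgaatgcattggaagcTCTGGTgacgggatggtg
Gpc5: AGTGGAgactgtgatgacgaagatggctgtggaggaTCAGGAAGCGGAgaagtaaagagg
The Gpc4 window lies in exon 9 of 9, on the minus strand of chromosome X (chrX:52053656-52053715), and the Gpc6 window in exon 10 of 10 on chromosome 14 (chr14:117974895-117974954, plus strand). The Gpc4 window holds 3 codon pairs and the Gpc6 window 4, whereas that of Gpc3 (chrX:52314868-52314927, minus strand, exon 7 of 8) holds 2. The others are in exon 9 of 9 of Gpc1 (chr1:92858343-92858402, plus strand), exon 10 of 10 of Gpc2 (chr5:138274499-138274558, minus strand) and exon 7 of 8 of Gpc5 (chr14:115788254-115788313, plus strand). Over the whole coding sequence Gpc4 has 4 such pairs, all in the 3' part of the coding sequence, and Gpc3 has 2.

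The last 60 coding bases of the syndecans before the stop codon are shown because they encode the end of the cytoplasmic tail, which binds PDZ proteins such as syntenin. Capitals mark the 13 bases that were the same in all 4 genes.
Sdc1: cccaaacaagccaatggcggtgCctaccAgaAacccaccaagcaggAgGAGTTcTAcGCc
Sdc2: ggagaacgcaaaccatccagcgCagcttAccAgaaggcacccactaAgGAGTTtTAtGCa
Sdc3: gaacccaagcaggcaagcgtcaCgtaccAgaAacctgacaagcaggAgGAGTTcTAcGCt
Sdc4: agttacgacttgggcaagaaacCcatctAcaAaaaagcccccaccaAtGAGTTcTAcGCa
Most of these shared bases lie in the final codons. The stretches are in exon 5 of 5 of each gene, in the same order at chr12:8791745-8791804, chr15:33032478-33032537 and chr4:130822747-130822806 on the plus strand and at chr2:164426089-164426148 on the minus strand.

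Coding sequences were then compared between family members, as the share of identical bases among aligned bases. Gpc4 and Gpc6 were the most alike of the 15 glypican pairs, at 68.5%, followed by Gpc1 and Gpc6 at 63.3%. Gpc3 and Gpc5 were 62.5% identical, while Gpc3 and Gpc4 were 58.35% identical. Syndecan pairs ranged from 65.3% (Sdc2 and Sdc4, 554 aligned bases) to 73.7% (Sdc3 and Sdc4, 597 aligned bases of the 1329 coding bases of Sdc3). Gaps were not counted and syndecans differ more in length, so their shares are not compared with those of glypicans. The longest identical run of aligned bases was 17 for Gpc4 and Gpc6 and 29 for Sdc3 and Sdc4. Gpc3 and Gpc4 are neighbours on chromosome X, separated by 108 kb, and Gpc5 and Gpc6 are neighbours on chromosome 14, separated by 400 kb.

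To see which members the E12.5 testis expressed, levels were compared per length (RPKM, the CPM divided by the exon length in kilobases), averaged over all 6 samples. Gpc3, a restrainer of growth that binds Hedgehog and Wnt ligands, stood above every other member, at 339 ± 20.4 RPKM (SD, n = 6), or 62.7% of the family's summed level. Gpc4 followed at 40.5 ± 5.76 RPKM (SD, n = 6), then Sdc4, a syndecan of focal adhesions, at 33.96 ± 4.05 RPKM (SD, n = 6), Gpc1, a cofactor of FGF signalling, at 28.7 ± 2.08 RPKM (SD, n = 6), and Sdc1, best known from epithelia, at 25.4 ± 1.02 RPKM (SD, n = 6). The ranges of the 6 samples overlapped between neighbours in this order (Gpc4 and Sdc4, Sdc4 and Gpc1, Gpc1 and Sdc1). Members farther apart did not overlap, with Gpc4 (34.95 to 48.78 RPKM) above Gpc1 (25.48 to 31.53 RPKM) and Sdc1 (24.14 to 26.44 RPKM), and Sdc4 (29.49 to 39.4 RPKM) above Sdc1.

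Sdc3, known from neural tissue, had 20.7 ± 1.63 RPKM, Sdc2, a mesenchymal syndecan, 19.9 ± 0.576 RPKM, and Gpc6, the closest paralog of Gpc4, 19.7 ± 1.21 RPKM (SD, n = 6 each), and their ranges overlapped as well. Gpc2, a glypican of developing neurons, was lower at 12.47 ± 1.27 RPKM (SD, n = 6). Gpc5 had 3 counts in control replicate 3, 2 counts in cKO replicate 3 and 0 in the other libraries. A count of 0 allows up to 3 counts, which is 0.0680 to 0.186 CPM in these libraries, so Gpc5 was at or under the limit of detection.

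**Figure D1:**
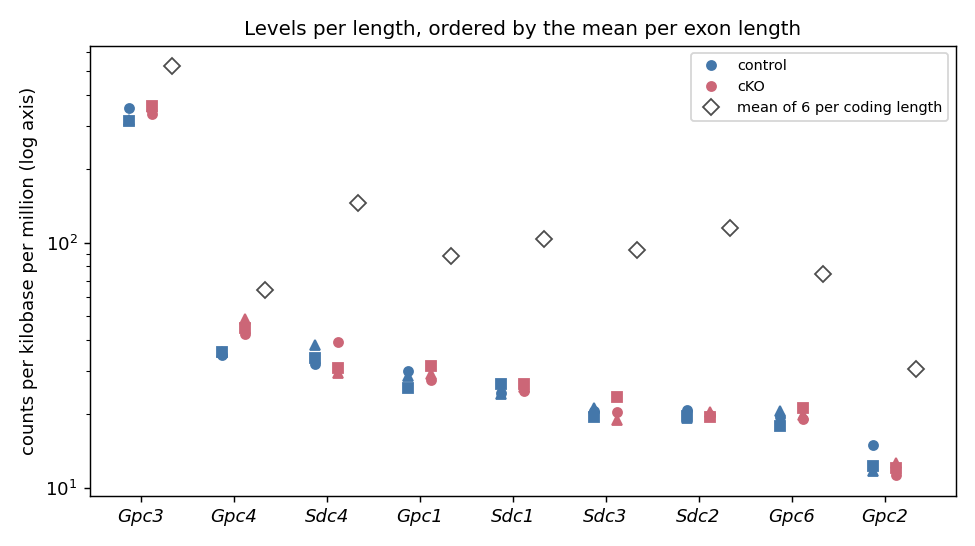
Level of each member in RPKM (log axis) in every sample, with control in blue, cKO in red and circles, squares and triangles for replicates 1, 2 and 3. Open diamonds give the mean of the 6 samples per coding length. Gpc3 lay at 315 to 360 RPKM per exon length, far above the rest. Per coding length it was also the highest, at a mean of 524 RPKM against 145 RPKM for Sdc4.

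The order below Gpc3 depended on the length used. Both lengths divided the same counts, which were not limited to coding bases, so genes with long untranslated parts rise per coding length. Sdc2 has 609 coding bases against 3527 exon bases, and Gpc4 has 1674 against 2651. Per coding length, Gpc3 was still the highest at 524 RPKM (42.3% of the sum), but Gpc4 fell to place 8 at 64.1 RPKM and Sdc4 (145 RPKM) and Sdc2 (115 RPKM) came next to Gpc3. The 5 detected glypicans together made up 80.1% to 82.3% of the summed level per length in control and 80.6% to 83.1% in cKO samples, so the balance between glypicans and syndecans overlapped between the groups. The summed level of the family was 505 to 550.5 RPKM in control and 539 to 570 RPKM in cKO samples, which also overlapped.

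The comparison of cKO with control asks how the transcriptome differed where glycogen synthesis had been reduced in the somatic cells. Gpc4 (chromosome X, 52053018 to 52164923, minus strand) was the family member with the largest difference, and it is the difference for which the family was chosen. Gpc4, whose product takes part in Wnt and FGF signalling and is secreted by astrocytes to promote synapses, had 92.7, 95.2 and 94.8 CPM in control replicates 1 to 3 and 113, 119 and 129 CPM in cKO replicates 1 to 3. The groups did not overlap, and the control samples lay close together. The group means were 94.2 ± 1.38 and 120.3 ± 8.40 CPM (SD, n = 3 each), a level 27.7% higher in cKO testes and a log2 fold change of 0.35 (SE 0.0621).

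Among all 15577 genes tested, 897 (5.76%) had a fitted log2 fold change of at least this size, and the groups did not overlap, with cKO higher, for 1312 genes (8.42%). edgeR called none of the 9 tested members at an adjusted p (FDR) under 0.05 over all genes, where 0.0385% of all genes were called (0.0321% higher and 0.00642% lower). DESeq2 called 1 member, Gpc4, where it called 0.779% of the genes with an adjusted p (0.4% higher and 0.379% lower). At an unadjusted edgeR p under 0.05 there was likewise 1 member of 9, against 11.4% of all genes. Gpc4 itself was the basis of the choice, so these counts are not evidence about it.

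**Figure D2:**
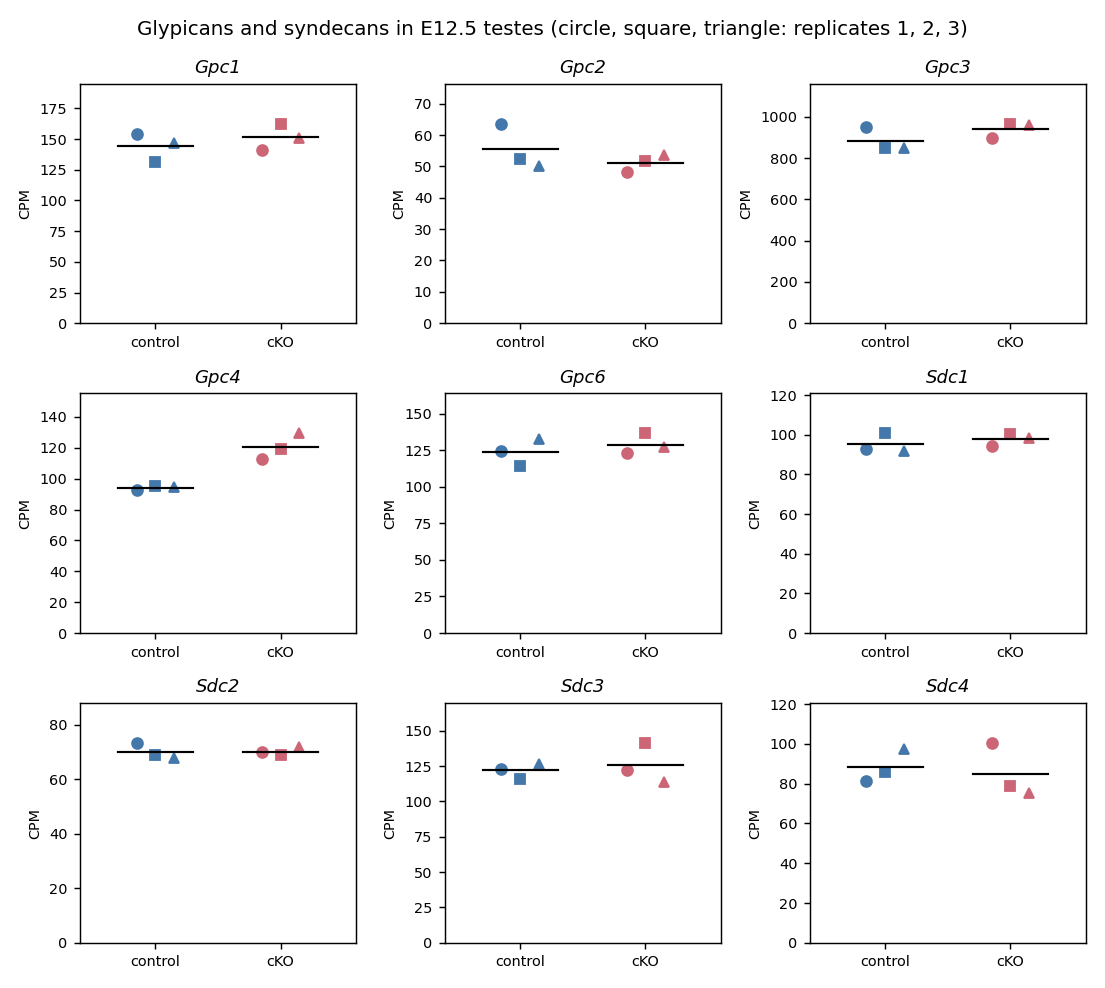
CPM of the 9 detected members in each sample, on axes from 0, with control in blue, cKO in red, circles, squares and triangles for replicates 1, 2 and 3, and black lines at the group means. Only the Gpc4 panel shows groups that do not overlap, with control at 92.7 to 95.2 CPM and cKO at 113 to 129 CPM.

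The groups overlapped for the other 4 detected glypicans. Gpc3 (chromosome X, 52272426 to 52613974) had 951.5, 846 and 849.8 CPM in control and 899.6, 967 and 958 CPM in cKO replicates 1 to 3. Control replicate 1 lay within the cKO range, and the log2 fold change was 0.094 (SE 0.0633), from 0.056 without control replicate 2 to 0.15 without control replicate 1. Relative to Gpc3, the level of Gpc4 per length was 9.88% to 11.4% in control samples and higher in every cKO sample, up to 13.7%. The ratio of Gpc4 to Gpc6 per length was 1.80, 2.02 and 1.73 in control and 2.22, 2.11 and 2.46 in cKO replicates 1 to 3. Both ratios contain the Gpc4 values for which the family was chosen, so they restate that difference and are no further evidence of it.

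Gpc6 had 124.5, 114 and 132.5 CPM in control and 123, 136.5 and 127 CPM in cKO samples, with a log2 fold change of 0.058 (SE 0.0681). Its groups overlapped although it is the paralog closest to Gpc4 in sequence. Gpc1 had 154, 131 and 147 CPM in control and 141.5, 163 and 150.6 CPM in cKO samples, with a log2 fold change of 0.075 (SE 0.0739) that was 0.003 without control replicate 2. Gpc2 was the glypican with the lowest fold change, -0.11 (SE 0.0934), from 63.7, 52.4 and 50.2 CPM in control and 48.1, 51.6 and 53.7 CPM in cKO samples. The Gpc2 difference rested on control replicate 1, without which the log2 fold change was -0.005.

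The groups overlapped for all 4 syndecans. Sdc2 had 73.3, 69.1 and 67.8 CPM in control and 70.0, 68.9 and 71.7 CPM in cKO samples, a log2 fold change of 0.005 (SE 0.0591), and all 6 samples lay within 67.8 and 73.3 CPM. Sdc1 had 93.0, 101 and 92.0 CPM in control and 94.5, 101 and 98.6 CPM in cKO samples, a log2 fold change of 0.039 (SE 0.0592) that was 0.008 without control replicate 3. The samples of both genes lay in a narrow range.

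Sdc3 and Sdc4 varied more, and mainly among the cKO samples. Sdc3 had 123, 116 and 126.5 CPM in control and 122, 141 and 114 CPM in cKO replicates 1 to 3, with a log2 fold change of 0.045 (SE 0.0800). Sdc4 had 81.4, 86.0 and 97.5 CPM in control and 100.3, 78.6 and 75.1 CPM in cKO replicates 1 to 3, with a log2 fold change of -0.062 (SE 0.112). The sign of both differences depended on single samples. Sdc3 was at -0.047 without cKO replicate 2, and Sdc4 at 0.017 without cKO replicate 3. Over the 9 tested members 7 fold changes (77.8%) were above 0 and 2 below, where 49.1% of all genes were above 0. Their median was 0.045 on the log2 scale, against a median of -0.003 over all genes. The 7 include Gpc4, for which the family was chosen, and Gpc6, Sdc2 and Sdc3, whose sign changed when single samples were left out. No direction of the family is read from this count.

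**Figure D3:**
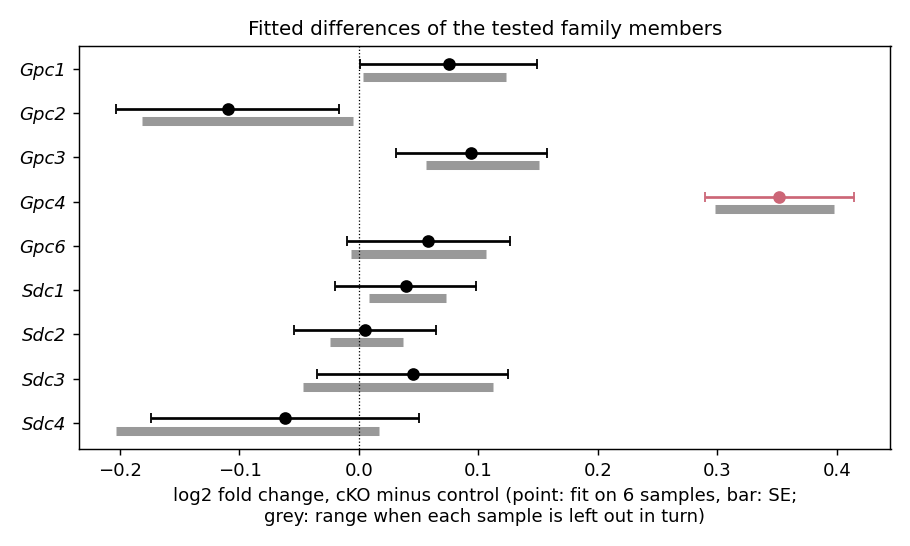
Log2 fold change of each tested member (cKO minus control), with points and SE bars from edgeR on all 6 samples and grey bars for the range when each sample was left out in turn. Gpc4 stayed between 0.30 and 0.40, and the other members lay between -0.20 and 0.15 in all of these fits.

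Values of cell type markers and of single libraries were set beside Gpc4. Markers of the testis were present in every sample, with Amh at 588 to 920.1 CPM and Sox9 at 155 to 213.5 CPM. Among the fetal Leydig markers only Insl3 was low, at 1.15 to 2.13 CPM. Star was at 33.4 to 78.4 CPM, Cyp11a1 at 25.0 to 68.8 CPM, Cyp17a1 at 42.2 to 134.7 CPM and Hsd3b1 at 60.4 to 151 CPM. Of the germ cell markers, 9 of 9 tested had lower fitted values in cKO (median log2 fold change -0.80), and their summed level was 499.8 to 809.5 CPM in control and 253 to 525 CPM in cKO samples, with control replicate 1 below cKO replicate 1. From the RNA of whole testes alone, fewer cells of a type and less RNA per cell cannot be told apart. By staining, the authors counted fewer germ cells in cKO than in control testes at E12.5. All 7 pre-granulosa markers had higher fitted values (median 0.70), with a summed level of 83.3 to 100.5 CPM in control and 97.7, 101 and 269 CPM in cKO samples. The highest sum belonged to cKO replicate 3, and without that library the median was 0.16.

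The remaining lists had medians of -0.078 for Sertoli (7 of 7 tested), -0.052 for interstitial (6 of 6), -0.31 for fetal Leydig (5 of 5), 0.52 for mesonephros (4 of 7), -0.004 for endothelial (5 of 5) and 0.032 for surface epithelium markers (3 of 5). Their summed levels overlapped between the groups, and no marker that was in the table had 0 counts in all samples. The mesonephros sum joined opposite values, with Pax2 (log2 fold change 0.785), Pax8 (0.521) and Gata3 (0.51) higher in cKO and Lhx1 (-0.777) lower. Single markers without overlap in these lists were Pax2 and Pax8, higher, and endothelial Pecam1 (-0.19), lower. Among the germ cell markers, Dppa3 (-1.242) was lower without overlap. Of all genes, 15.6% did not overlap in either direction. edgeR called 0 marker genes in any of the 8 lists.

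cKO replicate 3 stood apart from the other libraries in Xist and in pre-granulosa markers. It held 379 CPM of Xist, the RNA that coats an inactive X chromosome, against 0.369 to 1 CPM elsewhere, and 7.56 CPM of Foxl2 and 50.9 CPM of Fst against at most 1.22 and 2.02 CPM. It also had the highest Gpc4 level. Without it, the cKO samples still lay at 113 and 119 CPM, above every control sample, and the log2 fold change of Gpc4 was 0.30 (SE 0.0639), the lowest of the fits that left out a sample. DESeq2, which called Gpc4 on all 6 samples, gave it an FDR of 0.0571 without this library. The part of these markers in the Gpc4 difference was not tested.

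**Figure D4:**
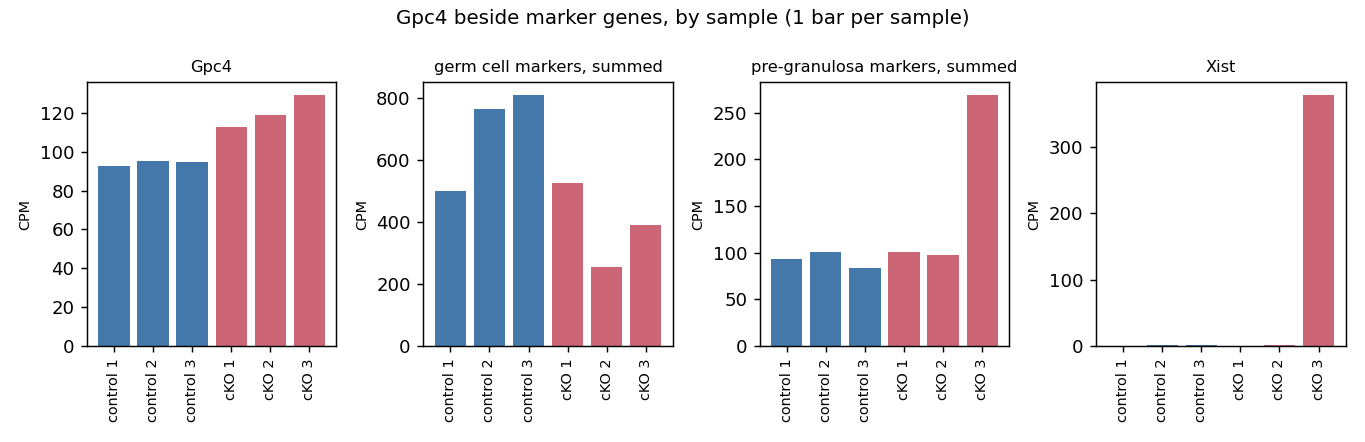
Gpc4, the summed germ cell markers, the summed pre-granulosa markers and Xist in each sample, in CPM, with 1 bar per sample, control in blue and cKO in red. Gpc4 was higher in all 3 cKO samples, whereas Xist and the pre-granulosa markers were high in cKO replicate 3 only.

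Since Gpc3 and Gpc4 are X-linked, the rest of the chromosome was examined. The other 594 tested X-linked genes, Xist left out, had a median log2 fold change of 0.004, with 303 of them above 0. In cKO replicate 3 their median log2 CPM difference from the control mean was 0. Within 1 Mb of Gpc4, 10 of 27 genes were tested, of which 6 had fold changes above 0 and 4 below. edgeR and DESeq2 called 0 of these 10, which include Gpc3. An unadjusted edgeR p under 0.05 was found for 4 of the 10, a larger share than the 11.4% of all genes. Mbnl3 (log2 fold change 0.307), C430049B03Rik (0.187) and Plac1 (0.426) were higher in cKO, and Usp26 (-0.842) was lower. The groups did not overlap, with cKO higher, for Mbnl3 and C430049B03Rik, where 8.42% of all genes did so. Mbnl3 was at 74.9 and 75.8 CPM in cKO replicates 1 and 2 and at 96.2 CPM in cKO replicate 3. The relation of these 4 neighbours to the Gpc4 difference was not tested. The heparan sulfate 6-O-sulfotransferase Hs6st2, which lies among these neighbours, was at -0.018 (SE 0.0628).

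The 5 tested genes whose pattern over the 6 samples was most like that of Gpc4 were Lrguk, Dyrk2, Tbc1d4, Cmtr1 and Vav2, chosen from 15576 by the root mean square difference of centred log2 CPM. This difference was 0.0343 for Lrguk, 0.0359 for Dyrk2, 0.0438 for Tbc1d4, 0.0487 for Cmtr1 and 0.0514 for Vav2, over 6 samples. Lrguk had only 14 to 43 counts in a library. Within the family, the nearest was Gpc3, at 0.15 and place 1758, and the farthest Sdc4, at 0.287 and place 11216. With 6 samples and this many genes, such likeness is a description.

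The genes that build, modify and use heparan sulfate were examined next, as 6 lists of 81 genes that do not include the members, of which 77 passed the filter. edgeR called 0 of the 77 over all genes, and DESeq2 on all 6 samples made 0 calls. With no adjustment, 9 genes had an edgeR p under 0.05, of which 8 were higher and 1 lower, or 11.7% against 11.4% of all genes. The median log2 fold change of the 77 genes was 0.072, against -0.003 over all genes, and 62.3% were above 0, against 49.1%. Groups did not overlap for 13 genes that were higher in cKO (16.9%, against 8.42% of all genes) and 1 that was lower (1.30%, against 7.17%).

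Chain synthesis begins with a linker sugar and elongation by the Ext polymerases. None of the 12 genes of this list was called (0 at an unadjusted p under 0.05), and the median was 0.029. Its lowest p values were those of Xylt1, which adds the first sugar of the linker, at 0.20 on the log2 scale (SE 0.0969, edgeR FDR 0.473), and Extl3, which starts the heparan sulfate chain, with 0.10 (SE 0.0536, edgeR FDR 0.492). Without cKO replicate 3, the library with Xist, the Xylt1 value was 0.10. Xylt1 had 18.9, 18.6 and 17.2 CPM in control and 19.7, 19.4 and 23.6 CPM in cKO samples.

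Sulfation sets which ligands a chain binds. Of 20 genes for chain-modifying enzymes and for the supply of the sulfate donor, 16 were tested, and Ndst4, Hs6st3, Hs3st5 and Hs3st6 were not. The lowest p belonged to Hs6st1, which sulfates the 6-O position, at 315, 291 and 285 CPM in control and 329, 355 and 357 CPM in cKO replicates 1 to 3. Its groups did not overlap, with a log2 fold change of 0.23 (SE 0.0586), but the edgeR FDR was 0.377, and 0.0679 by DESeq2. Ndst1, which opens the modification by N-sulfation, was at 0.12 in log2 fold change (SE 0.0707, edgeR FDR 0.536), from 0.075 without control replicate 2 to 0.18 without control replicate 1. The median of the list was 0.066.

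Among the 16 genes of chain remodelling, shedding and turnover the median was 0.099, and 3 had an unadjusted p under 0.05, all higher. Naglu, a lysosomal enzyme of heparan sulfate breakdown, was at 0.31 in log2 fold change (SE 0.108, edgeR FDR 0.382), and Adam10, a protease that sheds membrane proteins, had 0.16 (SE 0.0583, edgeR FDR 0.382). Adam10 was at 338, 329 and 321 CPM in control and 350, 360 and 394 CPM in cKO samples, without overlap.

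The list of other heparan sulfate proteoglycans held 10 genes with a median of 0.065. Cd44, a hyaluronan receptor that can carry heparan sulfate, came first by p, at 1.35 on the log2 scale (SE 0.449, edgeR FDR 0.377). It had 5.11, 4.41 and 5.61 CPM in control and 24.3, 6.76 and 7.17 CPM in cKO samples. The size of this value came from cKO replicate 1, without which the log2 fold change was 0.47. Spock1, a secreted proteoglycan, was at 0.924, 1.47 and 1.54 CPM in control and 0.898, 0.640 and 0.968 CPM in cKO samples, at -0.69 on the log2 scale (SE 0.289, edgeR FDR 0.418).

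The 6 cytoplasmic partners of syndecans had a median of 0.095. Prkca, the kinase that the Sdc4 tail binds, was at 0.33 in log2 fold change (SE 0.107, edgeR FDR 0.377), and it was 0.21 without cKO replicate 1. Cask, a PDZ scaffold of the syndecan tail, had 0.11 (SE 0.0598, edgeR FDR 0.515). Among 17 ligands that bind heparan sulfate the median was 0.033. Vegfa, an angiogenic growth factor, was at 0.15 in log2 fold change (SE 0.0655, edgeR FDR 0.434), and at 0.078 without control replicate 3. Wnt4, which marks the ovary side of the early gonad, was at 51.8, 58.2 and 45.5 CPM in control and 59.0, 57.0 and 138 CPM in cKO samples. Its log2 fold change of 0.70 (SE 0.299, edgeR FDR 0.422) came down to 0.16 without cKO replicate 3.

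**Figure D5:**
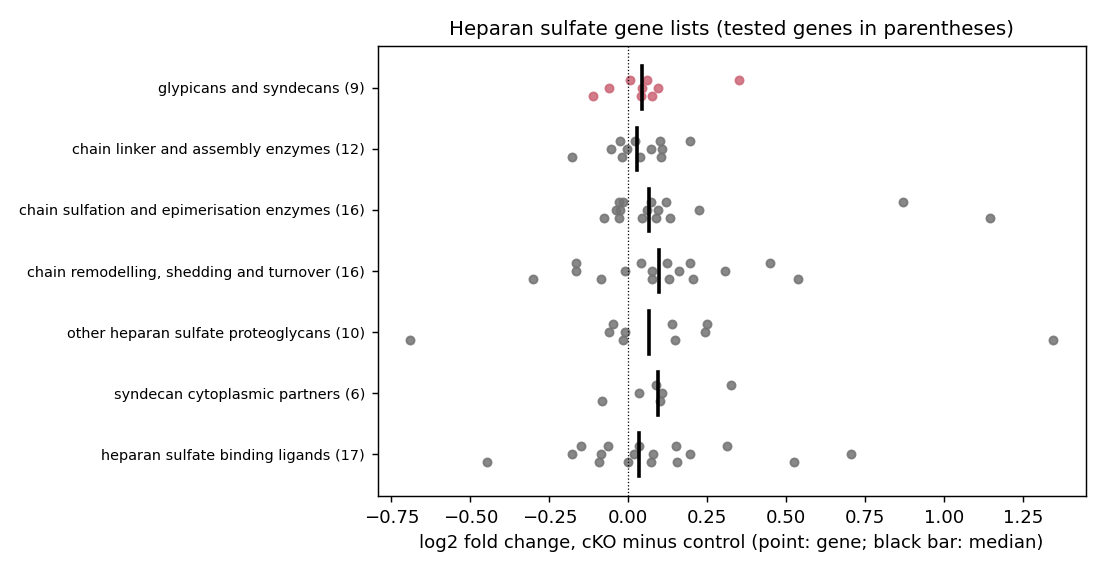
Log2 fold change (cKO minus control) of each tested gene in the 6 heparan sulfate lists and of the 9 tested glypicans and syndecans, shown in red, with black bars at the medians. The medians lay between 0.029 and 0.099, and no gene of the 6 lists passed the threshold over all genes.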

How the data were processed

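RNA-seq libraries were stranded mRNA libraries (TruSeq) from 3 control and 3 cKO samples. The deposited values were raw counts of read pairs per gene, made by the authors with STAR (version 2.5 in the submitters' processing notes) on mm10 and featureCounts (Subread 1.5.0-p1) in reverse-stranded mode, over RefSeq Curated models, with no normalization. Groups and replicate numbers came from the sample titles. Every pair of libraries differed by more than sampling noise (chi-square test of counts).

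Members and lists were chosen with earlier results of these data known. Named genes were the members, Ppp1r3c, the 2 of lowest p in each list without a call, and the 5 most like Gpc4. Nr5a1 and the neighbours of Gpc4 with an unadjusted p under 0.05 were added after their values were seen. All genes were fitted together with edgeR 4.0.16 in R 4.3.3 (filterByExpr, minimum count 10, TMM, quasi-likelihood F-test, no covariates), adjusted by Benjamini-Hochberg over 15577 genes. SE came from the F statistic. Nothing says whether same-group samples came from separate litters, so p-values measure the spread between these pools. CPM used TMM-scaled totals. RPKM divided CPM by the exon union of GENCODE M21 (GRCm38), not the authors' gene models, since the table gives no lengths; the planned coding length was therefore also taken from GENCODE. Coding sequences were aligned globally with Biopython 1.88. Alternatives were DESeq2 1.42.0, limma-voom (limma 3.58.1), RLE factors, other filters (none, or CPM of at least 1 in 3 samples), a replicate block and leaving out samples. The code was tested on simulated counts.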

Additional observations from a re-analysis of the deposited data

How the results depend on the processing

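Members called by edgeR stayed at 0 higher and 0 lower in every alternative run with edgeR or limma-voom, and DESeq2 called 1 higher. DESeq2 without single samples, an alternative chosen after seeing the data, called 0 to 1 members higher. Gpc4 lost its DESeq2 call when cKO replicate 3 was left out (FDR 0.0571), had no adjusted p when control replicate 3 was, and was called in the other 4 such fits. Genes of the heparan sulfate lists called stayed at 0 in edgeR, limma-voom and DESeq2 on all samples, and were 0 to 1 higher in DESeq2 without single samples, the 1 being Hs6st1 (without control replicate 1 or cKO replicate 1).

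Over all genes, 5 were called higher and 1 lower by edgeR, 57 and 54 by DESeq2, 3 higher with the stricter filter, and 2 lower with limma-voom or no filter. The counts were 1 to 5 higher and 1 to 3 lower without single samples in edgeR, and 9 to 100 and 4 to 213 in DESeq2 (without control replicates 1 to 3, then cKO replicates 1 to 3: 100, 48, 31, 89, 64 and 9 higher, and 213, 4, 17, 211, 18 and 5 lower). The cause was not tested. Same-numbered samples deviated with correlations of -0.20, -0.27 and -0.13, which gives no sign of pairing by number. Under the replicate block 2 genes were called higher, and no member.

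Gpc3 took 62.7% of the summed level per exon length, 42.3% per coding length, and 62.4% to 63.0% without single samples. Gpc4 stayed positive in all 18 alternatives, from 0.30 to 0.40 on the log2 scale. Values near 0 changed sign: Gpc6 without control replicate 2 (-0.0066, highest 0.106 without control replicate 3), Sdc2 when control replicate 2 (-0.014), control 3 (-0.024) or cKO 3 (-0.010) was left out (highest 0.0371), Sdc3 without cKO replicate 2 (-0.047, highest 0.112), and Sdc4 without control replicate 3 (0.011) or cKO replicate 3 (0.017). DESeq2 without the same samples gave -0.0022, -0.013 and -0.0070 for Sdc2, -0.045 for Sdc3, and 0.019 and 0.019 for Sdc4. No direction is read from these 4 genes, nor from Gpc1 (0.003 to 0.123), Gpc2 (-0.182 to -0.005) or Sdc1 (0.008 to 0.073) without single samples in edgeR. Depth limits only Gpc5 among the members.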

Other observations

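Sulf1, which encodes an extracellular sulfatase that removes 6-O-sulfates from finished chains, was singled out after its values were seen. It was at 121.5, 132 and 126.5 CPM in control replicates 1 to 3 and at 140.2, 143 and 269.9 CPM in cKO replicates 1 to 3. The cKO replicate 3 library, which also held Xist, thus had the highest level, and the other cKO samples lay above every control sample by a small margin (log2 fold change 0.54, SE 0.217, edgeR FDR 0.410). Its relation to the XX markers of that library was not tested.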
